A study of Mus musculus with 24 samples.

Results

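The main olfactory epithelium (OE) of iRhom2-/- mice was compared with that of WT mice at 8 weeks of age, with 3 mice in each genotype, out of 24 libraries in the whole series. The members were chosen by age and genotype as labelled, and every one of the 45706 genes in the count table was considered. The strain of both genotypes was labelled as mixed, and the iRhom2-/- line was of mixed 129Sv and C57BL/6 background. Both were untreated and came from a single submission to the sequencing core. The iRhom2-/- mice carried the constitutive tm1b allele of Rhbdf2, the gene for iRhom2, in which a LacZ cassette runs from the gene's own promoter and a short transcript from its first exons can still be made. Each library was poly(A) RNA from the whole OE of both nares of 1 mouse, so bone, glands, vessels and blood of the nasal mucosa were sampled with the neurons. Fewer cells of a type and less RNA per cell cannot be told apart in such samples. The libraries held 39191589 to 48660394 counts, so that 3 counts were at most 0.0741 CPM, which is the count divided by the scaled library total in units of 1e6. WT mouse 1 stood apart from the other libraries: its correlations with the other mice in log2 CPM across genes were 0.940 to 0.965, against at least 0.967 for every other pair. Results that rest on it are given with and without it. Omp, the marker of mature olfactory neurons, was at 3828 to 7665 CPM in the 6 libraries. WT mouse 3 was labelled female and the other 5 mice male, but Xist had 7 to 15 counts and the Y-linked Ddx3y 1713 to 2197 counts in all 6 libraries, WT mouse 3 included.

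The OE is a pseudostratified tissue in which olfactory sensory neurons (OSNs) each express one odorant receptor (OR) gene and signal through a cyclic AMP cascade. Sustentacular cells support them, and basal stem cells replace them throughout life. Glands under the epithelium (Bowman's glands) and larger nasal glands secrete the mucus, which holds BPI fold proteins, odorant-binding lipocalins and antimicrobial proteins, while plasma cells in the mucosa provide secreted IgA. iRhom2 is a catalytically inactive rhomboid protein that carries the metalloprotease ADAM17 to the cell surface, where ADAM17 releases TNF and ligands of the EGF receptor. It is best known for this role in myeloid cells.

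The filter on low counts kept 19335 genes. Of these, 626 were called higher (3.24%) and 336 lower (1.74%) in the iRhom2-/- OE, 4.98% in all, where a called gene has a p under 0.1 in the quasi-likelihood test of edgeR after adjustment by Benjamini and Hochberg. DESeq2 called 1083 genes higher and 1002 lower. Most of the called differences were small: the median log2 fold change was 0.42 among genes called higher and -0.61 among genes called lower, and 75 and 113 genes reached 2-fold. All 962 called genes had groups that did not overlap in CPM, as did 26.9% of all genes tested. The number of calls depended on which mouse was left out. It was 420 higher and 341 lower without WT mouse 1, 79 and 58 without WT mouse 2, 61 and 69 without WT mouse 3, 698 and 647 without iRhom2-/- mouse 1, 48 and 32 without iRhom2-/- mouse 2, and 37 and 40 without iRhom2-/- mouse 3. In all 6 of these fits 57 genes stayed past the threshold, 32 higher and 25 lower, which was 0.295% of the genes tested.

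A called gene was said to rest on 1 mouse where leaving that mouse out took its log2 fold change to under 0.5 of its full value. Only Jchain, the joining chain of secreted IgA, and Iglc2, a constant segment of the lambda light chain, met this, and both rested on WT mouse 1. Among all 1171 genes tested that differed by 2-fold or more, called or not, the picture was uneven. Leaving out WT mouse 1 took 241 of them (20.6%) to under that fraction, of which 235 were lower in iRhom2-/- mice. Each of the other 5 mice did so for 11 to 25 genes.

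Rhbdf2, the targeted gene on chromosome 11 (GRCm38, 116598165 to 116627019, minus strand), was measured at 21.2, 24.1 and 20.5 CPM in WT mice 1 to 3 and at 11.3, 13.6 and 12.9 CPM in iRhom2-/- mice 1 to 3. All 3 iRhom2-/- mice were below all WT mice, with reads remaining on the gene (log2 fold change -0.80, SE 0.11, adjusted p = 0.030). Of the other iRhom and ADAM genes, none of 4 passed the test. Rhbdf1, the gene for iRhom1, had a log2 fold change of -0.08 (SE 0.08, adjusted p = 0.637), and Adam17 of -0.36 (SE 0.13, adjusted p = 0.189). In 3 of the 5 iRhom and ADAM genes, Rhbdf2 included, the groups did not overlap with iRhom2-/- lower, as in 11.8% of all genes. None of the 10 EGF receptors and ligands tested passed, and their median log2 fold change was -0.11. Of these 10, 8 had a lower mean in iRhom2-/- mice, and in 5 the groups did not overlap, all with iRhom2-/- lower. Egf was at 30.6, 13.4 and 14.2 CPM in WT mice and at 8.24, 12.2 and 11.7 CPM in iRhom2-/- mice, a gap that did not pass the test (adjusted p = 0.220).

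Among secreted products, 3 genes of the BPI fold family fell, which encode lipid-binding proteins of airway and nasal mucus. Bpifb9b was at 60723, 31920 and 18587 CPM in WT mice and at 3926, 917 and 1750 CPM in iRhom2-/- mice. Bpifb9a was at 21828, 11614 and 6867 CPM in WT mice and at 1122, 293 and 555 CPM in iRhom2-/- mice. Bpifb5 was at 615, 412 and 218 CPM in WT mice and at 56.6, 12.1 and 16.4 CPM in iRhom2-/- mice. In each, the lowest WT mouse was above the highest iRhom2-/- mouse, with WT mouse 1 the highest and WT mouse 3 the lowest of the WT mice. The log2 fold changes were -4.08 for Bpifb9b (SE 0.67, adjusted p = 0.043), -4.35 for Bpifb9a (SE 0.64, adjusted p = 0.033) and -3.87 for Bpifb5 (SE 0.68, adjusted p = 0.047). Without WT mouse 1 the value for Bpifb9b was -3.53, and 3 BPI fold genes were again called lower. In that fit 341 of all 19335 genes were called lower. Of the 6 fits that left out 1 mouse, the call held in 3 for Bpifb9b, 4 for Bpifb9a and 3 for Bpifb5. Bpifb9b alone took 5.53, 3.24 and 1.92% of all counts in the WT libraries, whereas mt-Co1, a mitochondrial subunit of cytochrome oxidase, was the gene with the most counts in each iRhom2-/- library.

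The 3 genes lie next to each other on chromosome 2, Bpifb5 at 154223742 to 154240902, Bpifb9a at 154257854 to 154271245 and Bpifb9b at 154307227 to 154320646, all on the plus strand. Bpifb9a and Bpifb9b are close copies, and how reads were divided between them was not tested. Their 250 bases before the RefSeq start site (GRCm38.p6) are shown because both genes fell together. The capitals mark the TATA box TATAAA:
Bpifb9a (chr2:154257629-154257878, plus strand): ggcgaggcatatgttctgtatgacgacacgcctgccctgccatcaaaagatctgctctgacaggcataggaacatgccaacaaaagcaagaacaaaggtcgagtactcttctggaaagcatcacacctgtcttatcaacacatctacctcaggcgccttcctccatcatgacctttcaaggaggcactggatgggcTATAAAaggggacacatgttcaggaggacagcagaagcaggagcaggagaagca
Bpifb9b (chr2:154306994-154307243, plus strand): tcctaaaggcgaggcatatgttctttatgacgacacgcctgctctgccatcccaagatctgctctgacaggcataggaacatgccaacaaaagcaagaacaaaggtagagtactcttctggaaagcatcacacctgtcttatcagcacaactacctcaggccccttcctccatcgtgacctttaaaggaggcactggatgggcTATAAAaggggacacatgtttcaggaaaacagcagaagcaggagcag
With Bpifb9b shifted by 7 bases, 211 of 243 aligned bases were identical (86.8%). TATAAA was found on either strand in windows from 250 bases before to 50 bases after the start of 3 of 11 BPI fold genes and of 15.7% of 27025 genes.

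The decrease did not extend to the whole family. Of 9 BPI fold genes tested, 3 were called lower and none higher, against 1.74% of all genes called lower. Bpifb3 was at 4298, 4349 and 4073 CPM in WT mice and at 6215, 4684 and 6369 CPM in iRhom2-/- mice (adjusted p = 0.192), and Bpifb4 at 4818, 3815 and 3658 CPM against 3915, 7292 and 7128 CPM (adjusted p = 0.271). Bpifa1, an abundant airway surface protein, was at 5123, 3974 and 4167 CPM in WT mice and at 4189, 687 and 1835 CPM in iRhom2-/- mice. Only iRhom2-/- mice 2 and 3 were below the WT range for Bpifa1 (adjusted p = 0.370).

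Other secreted-product genes also fell. Odam, which encodes a protein secreted at epithelial attachment surfaces, was at 62.2, 69.0 and 34.6 CPM in WT mice and at 4.05, 2.03 and 2.18 CPM in iRhom2-/- mice (log2 fold change -4.32, SE 0.37, adjusted p = 0.0043). The call for Odam held in all 6 fits that left out 1 mouse. Odam lies on chromosome 5 at 87885029 to 87894174 beside 3 other genes that fell: 2310003L06Rik at 87969459 to 87972870, Cabs1 at 87979439 to 87981544 and Smr3a at 88002549 to 88008534. 2310003L06Rik was at 349, 160 and 109 CPM in WT mice against 9.66, 2.32 and 4.53 CPM (log2 fold change -5.22, adjusted p = 0.022). Cabs1 was at 68.2, 66.9 and 33.0 CPM against 5.16, 1.79 and 1.34 CPM (log2 fold change -4.34, adjusted p = 0.024). Smr3a was lower at 0.0910 to 0.318 CPM in iRhom2-/- mice against 1.09 to 1.76 CPM in WT mice. For all 4 the WT and iRhom2-/- mice did not overlap.

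Wfdc18, a whey acidic protein family member on chromosome 11, was at 1994, 1154 and 730 CPM in WT mice and at 111, 177 and 75.3 CPM in iRhom2-/- mice. Every iRhom2-/- mouse was below every WT mouse (log2 fold change -3.41, SE 0.45, adjusted p = 0.026). Pip, which encodes prolactin-induced protein of exocrine secretions, was at 45.4, 10.3 and 5.78 CPM against 1.70, 1.17 and 0.432 CPM (log2 fold change -4.21, adjusted p = 0.069). Its neighbour on chromosome 6, Sval2, fell by 3.60 on the log2 scale (adjusted p = 0.039). Of 17 secretoglobins and antimicrobial proteins tested, 2 were called, Odam and Wfdc18, both lower, against 1.74% of all genes called lower. The other 15 did not pass, and the median of the list went from -1.03 to -0.19 without WT mouse 1.

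Other products of the nasal secretions did not pass the test. The 10 odorant-binding proteins and lipocalins tested all had lower means in the iRhom2-/- OE and a median of -1.57 on the log2 scale, but none passed, none had groups that did not overlap, and the median was 0.39 without WT mouse 1. Obp1a was at 9165, 1390 and 1311 CPM in WT mice and at 667, 4144 and 562 CPM in iRhom2-/- mice. WT mouse 1 was the highest and iRhom2-/- mouse 2 the next. Mup4 had the same order at its top, with 7514, 1005 and 983 CPM in WT mice and 282, 1587 and 248 CPM in iRhom2-/- mice. Muc5b, a gel-forming mucin, was at 697, 454 and 688 CPM against 531, 587 and 666 CPM (log2 fold change -0.04, SE 0.18, adjusted p = 0.915). Ltf, which encodes lactoferrin, reached 1675 CPM in WT mouse 1 and 91.0 to 547 CPM in the other 5 mice. Dmbt1 and Pigr, which bind microbes and carry IgA across epithelia, were also highest in WT mouse 1, at 447 and 340 CPM, and did not pass (adjusted p = 0.123 and 0.143).

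**Figure D1:**
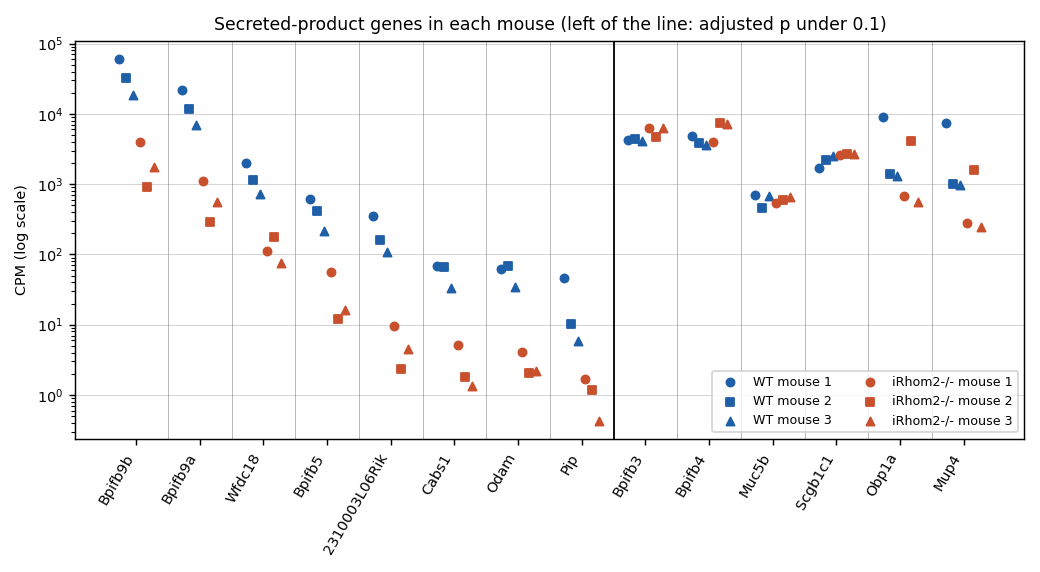
CPM on a log scale (y axis) of 14 secreted-product genes (x axis) in each of the 6 mice, with blue symbols for WT and orange symbols for iRhom2-/-. Left of the line the 8 called genes have every WT mouse above every iRhom2-/- mouse, and right of it the groups of Obp1a and Mup4 overlap because iRhom2-/- mouse 2 is above WT mice 2 and 3.

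At 10 weeks, in libraries of a separate submission, Bpifb9b was at 3250, 5182 and 309 CPM in WT mice and at 5755, 169700 and 536 CPM in iRhom2-/- mice. A single iRhom2-/- mouse was above all others and the genotypes overlapped. The difference between the effects at 10 and 8 weeks did not pass the test for Bpifb9b (adjusted p = 0.216), Bpifb9a (adjusted p = 0.212) or Odam (adjusted p = 0.200). When the 12 mice of both ages shared 1 fit, the 8-week calls were lost for Bpifb9b (adjusted p = 0.256), Bpifb9a (adjusted p = 0.218), Bpifb5 (adjusted p = 0.270), Odam (adjusted p = 0.193) and Wfdc18 (adjusted p = 0.109). That fit took the 8-week difference from the same 8-week mice, so the downward direction of all 5 could hardly change.

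Genes of mature OSNs were higher in iRhom2-/- mice. Of 12 tested, 4 were called higher and none lower, against 3.24% of all genes called higher, and their median log2 fold change was 0.49. Cnga4, a modulatory subunit of the olfactory cyclic nucleotide-gated channel, was at 227, 284 and 282 CPM in WT mice and at 366, 403 and 432 CPM in iRhom2-/- mice (log2 fold change 0.60, SE 0.11, adjusted p = 0.054). Ano2, the calcium-activated chloride channel of OSN cilia, was at 191, 258 and 235 CPM against 328, 339 and 343 CPM (log2 fold change 0.56, adjusted p = 0.063). Gfy, a Golgi protein that OSNs need for signalling, and Cnga2, the main channel subunit, rose by 0.57 and 0.53 on the log2 scale (adjusted p = 0.072 and 0.085). In all 4 genes every iRhom2-/- mouse was above every WT mouse. Without WT mouse 1, which had the lowest WT value of each, 2 of the 12 were called and the median was 0.38. In that fit 420 of all 19335 genes were called higher. Of the 6 fits that left out 1 mouse, the call held in 2 for Cnga4, 2 for Ano2 and 1 for Gfy.

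Other parts of the cascade had similar values without passing. Omp, the olfactory marker protein, was at 3828, 4523 and 4862 CPM in WT mice and at 5812, 6894 and 7665 CPM in iRhom2-/- mice, with no overlap (log2 fold change 0.62, SE 0.17, adjusted p = 0.112). Adcy3, the adenylyl cyclase of OSN cilia, was at 991, 1213 and 1198 CPM against 1461, 1585 and 1715 CPM (adjusted p = 0.102). Gnal, which encodes the olfactory G protein alpha subunit, had a log2 fold change of 0.39 (adjusted p = 0.175). Gng13, a G protein gamma subunit, was the exception in direction at -0.26 (adjusted p = 0.427). In all, 11 of the 12 genes had groups that did not overlap with iRhom2-/- higher, as did 15.2% of all genes tested.

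Cnga2 and Gfy are shown with the 250 bases before their RefSeq start, as called OSN genes whose windows hold 8 letters that Ebf factors, which act in OSNs, are known to bind. The capitals mark CCCNNGGG:
Cnga2 (chrX:71991599-71991848, plus strand): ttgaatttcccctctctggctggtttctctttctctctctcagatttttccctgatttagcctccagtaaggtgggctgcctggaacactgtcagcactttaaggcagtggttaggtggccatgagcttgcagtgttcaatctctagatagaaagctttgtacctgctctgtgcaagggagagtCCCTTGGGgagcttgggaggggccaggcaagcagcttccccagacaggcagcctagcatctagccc
Gfy (chr7:45179598-45179847, minus strand): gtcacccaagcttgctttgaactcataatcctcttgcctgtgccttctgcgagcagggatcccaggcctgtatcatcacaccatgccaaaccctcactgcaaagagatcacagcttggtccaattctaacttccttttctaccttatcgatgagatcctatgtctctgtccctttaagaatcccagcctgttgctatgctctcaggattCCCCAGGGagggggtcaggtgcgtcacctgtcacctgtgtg
CCCNNGGG was present on either strand in the 300-base windows of 7 of 9 mature OSN genes matched to RefSeq, 1 of 12 presynaptic genes, 6 of 14 interferon gamma genes and 15.4% of all 27025 genes. Letters in a window are a description and not a measured site.

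Of 10 immature OSN genes, 2 were called higher, against 3.24% of all genes called higher, and the median of the 10 was 0.18. Crmp1, a collapsin response mediator of growing axons, was at 66.2, 60.1 and 55.1 CPM in WT mice and at 75.0, 75.0 and 80.9 CPM in iRhom2-/- mice (log2 fold change 0.35, adjusted p = 0.077). Tubb3, neuronal tubulin, rose by 0.44 on the log2 scale (adjusted p = 0.095), while Gap43, the growth cone marker, was at 0.15 and did not pass (adjusted p = 0.388). No gene was called among 9 globose basal cell and neuronal precursor genes, 12 genes of dividing cells or 8 genes of horizontal basal cells. Mki67, a marker of cycling cells, was at 60.4, 42.4 and 33.6 CPM in WT mice and at 31.1, 30.1 and 33.8 CPM in iRhom2-/- mice, so the groups overlapped (adjusted p = 0.204). Among 9 sustentacular cell genes none was called and the median was 0.10. Cyp2g1, an olfactory cytochrome P450 of these cells, was at 2661, 3112 and 3080 CPM against 3072, 3584 and 3680 CPM (adjusted p = 0.395).

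Presynaptic genes were higher as well, with 5 of 14 called higher and none lower, against 3.24% of all genes called higher. In 7 of the 14 the groups did not overlap with iRhom2-/- higher, as in 15.2% of all genes. Syp, synaptophysin, was at 273, 304 and 287 CPM in WT mice and at 391, 423 and 466 CPM in iRhom2-/- mice (log2 fold change 0.57, SE 0.09, adjusted p = 0.041). Sv2a, a synaptic vesicle glycoprotein, was at 38.1, 42.8 and 40.3 CPM against 53.6, 54.9 and 57.1 CPM (log2 fold change 0.45, adjusted p = 0.032). Vamp2, Rab3a and Syt1, which act in vesicle fusion and its calcium control, rose by 0.35, 0.45 and 0.40 on the log2 scale. Without WT mouse 1, 2 of the 14 were called, and 420 of all 19335 genes were called higher. Of the 6 fits that left out 1 mouse, the call held in 3 for Sv2a, 2 for Syp and 1 for Vamp2. Genes of olfactory bulb neurons, which could enter with the tissue, were also higher in 7 of 8, with sums of 129 to 142 CPM in WT mice against 175 to 191 CPM in iRhom2-/- mice. Only Cdhr1, a cadherin of bulb output neurons, was called (log2 fold change 0.34, adjusted p = 0.054). Most of these sums was Cdhr1, with means of 119 CPM in WT and 151 CPM in iRhom2-/- mice. The means of the sums were 136 and 181 CPM. Slc17a7, another bulb marker, had means of 1.74 and 3.63 CPM and did not pass (adjusted p = 0.218). Gad1, a marker of inhibitory neurons, was at 7.07 and 6.78 CPM in iRhom2-/- mice 1 and 2 but at 0.66 CPM in mouse 3 and at 0.466 to 2.28 CPM in WT mice. The part of bulb tissue in the presynaptic result was not tested.

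Axon guidance and sorting genes showed 3 called higher and none lower of 20, against 3.24% of all genes called higher, with a median of 0.14. Efna3, an ephrin ligand, was at 133, 165 and 169 CPM in WT mice and at 234, 305 and 269 CPM in iRhom2-/- mice (log2 fold change 0.79, SE 0.13, adjusted p = 0.041). Efna5, a related ephrin that sorts OSN axons, was at 45.9, 40.0 and 43.5 CPM against 53.4, 58.4 and 59.2 CPM (log2 fold change 0.40, adjusted p = 0.053). Kirrel3, an adhesion molecule that OSNs express at lower levels when active, rose by 0.52 on the log2 scale (adjusted p = 0.085). Its relative Kirrel2 did not pass. Among 13 neuronal activity genes only Ier2 was called, an immediate early gene, at 41.4, 45.7 and 52.6 CPM in WT mice against 82.2, 77.1 and 84.5 CPM in iRhom2-/- mice. Ier2 did not overlap between genotypes (log2 fold change 0.80, SE 0.09, adjusted p = 0.016). The 13 genes had 9 higher and 4 lower means and a median of 0.15. Without WT mouse 1 there were 6 higher and 7 lower, and the median was -0.03. In that fit 1 of the 13 was called higher and 1 lower, beside 420 higher and 341 lower of all 19335 genes.

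**Figure D2:**
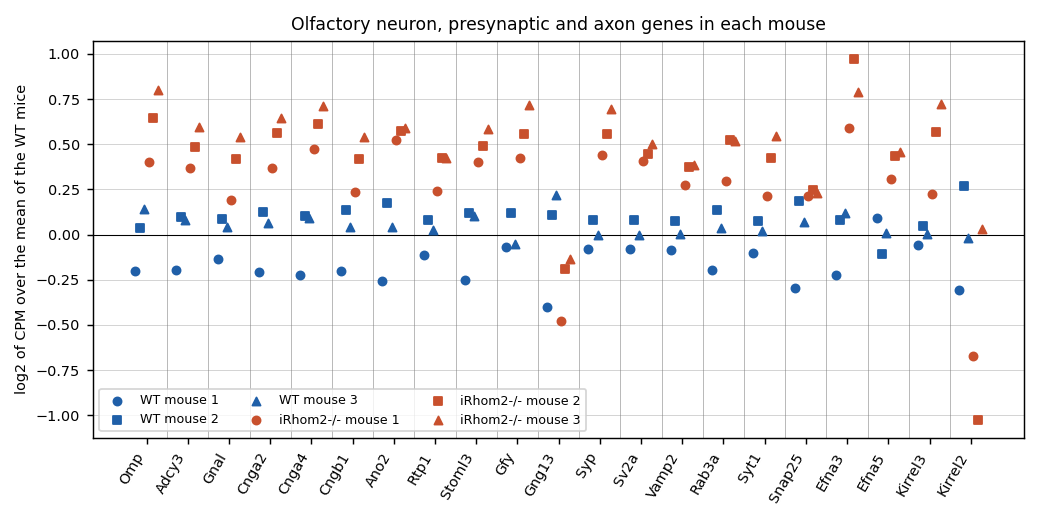
log2 of CPM over the mean of the 3 WT mice (y axis) for 21 OSN, presynaptic and axon genes (x axis) in each mouse, with blue symbols for WT and orange symbols for iRhom2-/-. iRhom2-/- mice lie above WT mice for Omp and the genes called higher, and below or among them for Gng13 and Kirrel2.

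OR genes took 0.124, 0.177 and 0.172% of counts in WT mice and 0.206, 0.198 and 0.199% in iRhom2-/- mice. All iRhom2-/- mice were above all WT mice, with means of 0.157% (SD 0.0293, n = 3) and 0.201% (SD 0.00441, n = 3), and the exact two-sided permutation test gave p = 0.1, the smallest that 3 against 3 mice allow. Of 883 ORs tested, 648 (73.4%) had a higher mean in iRhom2-/- mice, against 49.8% of all genes higher and 50.2% lower, and the median log2 fold change was 0.35. Without WT mouse 1, 575 were higher and the median was 0.22. Single ORs seldom passed: 17 were called higher and 4 lower, 2.38% of those tested against 4.98% of all genes. Only 56 ORs reached a mean of 5 CPM, of which 42 were higher and 3 were called.

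The called ORs were mostly rare transcripts with large differences. A rare transcript can pass the threshold only with a large difference, so their size is not set against that of the family. Olfr138 on chromosome 17 was at 1.31, 1.86 and 1.21 CPM in WT mice and at 9.64, 8.04 and 12.1 CPM in iRhom2-/- mice (log2 fold change 2.76, SE 0.25, adjusted p = 0.0053). Olfr309 on chromosome 7 was at 19.3, 23.4 and 19.3 CPM against 30.0, 30.3 and 35.1 CPM (log2 fold change 0.62, adjusted p = 0.052). Neither overlapped between genotypes. Olfr585 had 0 counts in every WT mouse and 32, 68 and 40 counts in iRhom2-/- mice, which is at least 3.84 higher on the log2 scale when WT is set at 3 counts per library (adjusted p = 0.033). Some called ORs were neighbours. Olfr543, Olfr585 and Olfr603 lie on chromosome 7 between 102476579 and 103386177, and Olfr331, Olfr323 and Olfr319 on chromosome 11 between 58501598 and 58703472, and all 6 were higher. Olfr331 had 0 counts in every WT mouse, Olfr603 had 2, 0 and 0, and Olfr323 had 8, 4 and 3. These and Olfr585 passed the filter on low counts through iRhom2-/- mice alone and could only be higher. On chromosome 9, Olfr888 (38108128 to 38111381) and Olfr44 were lower while Olfr901 (38429455 to 38432682) was higher. Olfr888 had 11, 44 and 35 counts in WT mice and 0, 1 and 0 counts in iRhom2-/- mice, so it passed the filter through WT mice alone and could only be lower.

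Among immune genes, those of immunoglobulins showed the most calls. Of 393 immunoglobulin segments in the count table, 91 passed the filter on low counts. Of these, 18 were called lower and none higher, against 1.74% of all genes called lower, and 89 had a lower mean. A segment could pass the filter through the WT mice alone, as Ighv1-76 did with 0 CPM in every iRhom2-/- mouse. Most of the called segments were likewise near 0 in iRhom2-/- mice, such as Ighv1-72 and Ighv1-53 with means of 0.0152 and 0.0653 CPM. For such segments the lower mean was set by the filter. The calls, lower means and medians of this list therefore cannot be read against those of all genes. Igkv10-96, Igkv1-110 and Iglc2 were higher there, with means of 0.549, 0.607 and 0.522 CPM. The summed level of the segments was 12394, 444 and 479 CPM in WT mice against 142, 77.1 and 103 CPM in iRhom2-/- mice. WT mouse 1 was far above the other WT mice, and these were above all iRhom2-/- mice. The median log2 fold change was -5.48, or -5.11 with the 8 segments at 0 in a whole group set at 3 counts per library. Without WT mouse 1 it was -2.83 with 35 segments called lower, and 341 of all 19335 genes were called lower in that fit. Immunoglobulin segments resemble each other, so the division of reads between them is uncertain. Immunoglobulin genes took 1.16, 0.0466 and 0.0511% of counts in the WT libraries against 0.0157, 0.00786 and 0.0106% in the iRhom2-/- libraries (exact two-sided permutation test p = 0.1, the smallest possible).

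Plasma cell genes followed the same order of mice. Jchain, which joins secreted IgA into dimers, was at 1361, 79.4 and 82.0 CPM in WT mice and at 22.3, 10.3 and 15.4 CPM in iRhom2-/- mice. All WT mice were above all iRhom2-/- mice, but the log2 fold change went from -4.99 (SE 1.23, adjusted p = 0.095) to -2.34 without WT mouse 1. It was the only one of 7 plasma cell genes called. Without WT mouse 1 the median of the 7 went from -3.41 to -0.70, and 3 were called lower, beside 341 of all 19335 genes.

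T and NK cell genes had lower means in all 13 tested, of which 4 were called lower against 1.74% of all genes, with a median of -2.75. Cd8a, the coreceptor of cytotoxic T cells, was at 10.1, 1.07 and 1.48 CPM in WT mice and at 0.212, 0.0853 and 0.250 CPM in iRhom2-/- mice (log2 fold change -4.51, SE 1.01, adjusted p = 0.078). Cd8b1, its partner chain, and Cd3d, part of the T cell receptor complex, also fell (adjusted p = 0.085 and 0.091). Cd8b1 was at 0.0213 to 0.0637 CPM in iRhom2-/- mice and passed the filter on low counts through the WT mice. Its separation of the genotypes was therefore set by the filter. In Cd8a and Cd3d WT mouse 1 was the highest, and WT mice 2 and 3 were also above every iRhom2-/- mouse. Cd3d was at 0.0640 to 0.276 CPM in iRhom2-/- mice, so both genes were near the filter there. Genes this low could hardly be tested with a higher mean in iRhom2-/- mice. The sum of the list was 12.8 to 79.2 CPM in WT mice against 5.10 to 9.19 CPM in iRhom2-/- mice. Its median was -1.40 without WT mouse 1, and 2 genes were then called lower, beside 341 of all 19335 genes. Other T cell genes among those that fell 4-fold or more were Ms4a4b at 7.09, 2.47 and 1.85 CPM against 0.616, 0.363 and 0.364 CPM (adjusted p = 0.055), and Cxcr6, a chemokine receptor of tissue-resident T cells, at 9.87, 2.26 and 2.81 CPM against 0.849, 0.277 and 0.318 CPM (adjusted p = 0.071).

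The 12 macrophage genes tested were all lower with a median of -0.74, none was called, and the median was -0.28 without WT mouse 1. Csf1r, the receptor for colony-stimulating factor 1, was at 76.4, 44.9 and 51.3 CPM in WT mice and at 54.8, 27.3 and 38.1 CPM in iRhom2-/- mice, so the groups overlapped (adjusted p = 0.346). Of 9 genes of monocytes and dendritic cells, 1 was called lower, Itgax, the CD11c integrin, at 10.2, 5.73 and 5.43 CPM against 3.78, 1.98 and 2.75 CPM (log2 fold change -1.32, SE 0.33, adjusted p = 0.099). No gene of 11 for neutrophils and marrow was called, and S100a8 was at 52.0 to 78.0 CPM in WT mice and at 41.8 to 75.2 CPM in iRhom2-/- mice. None of 16 inflammatory cytokines and Toll-like receptors and none of 15 complement genes was called.

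Genes of the response to interferon gamma were lower in all 21 tested with a median of -1.90, but none was called and the median was -0.62 without WT mouse 1. The sum of the list was 968, 164 and 197 CPM in WT mice against 128, 106 and 147 CPM in iRhom2-/- mice, with WT mouse 1 far above the others and WT mice 2 and 3 above every iRhom2-/- mouse. With all 6 mice, 10 of the 21 did not overlap with iRhom2-/- lower, as did 11.8% of all genes. Without WT mouse 1 all 21 were still lower and 1 was called lower, beside 341 of all 19335 genes. Gbp2, an interferon-induced guanylate-binding protein, was at 84.5, 12.3 and 14.0 CPM against 10.2, 6.76 and 12.7 CPM (adjusted p = 0.219). Cxcl10, a T cell attractant, was at 9.80, 2.17 and 2.15 CPM against 0.934, 0.341 and 1.05 CPM (adjusted p = 0.120). The 15 MHC class I genes had sums of 3816, 709 and 852 CPM in WT mice against 819, 607 and 688 CPM in iRhom2-/- mice, and their median went from -1.48 to -0.23 without WT mouse 1. MHC class II genes showed the same order, from -1.23 to -0.65. The median of 26 type I interferon genes turned from -0.42 to 0.17, and 1 gene, Cmpk2, a mitochondrial nucleotide kinase, was called higher at 48.3, 44.7 and 45.3 CPM against 55.0, 56.9 and 59.9 CPM (log2 fold change 0.31, adjusted p = 0.060).

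The promoters of Gbp2 and Cxcl10 are shown because the interferon genes shared the height of WT mouse 1 and a motif, the core of the interferon-stimulated response element (GAAA, any 2 bases, then GAAA). The capitals mark it, on the reverse strand in Gbp2:
Gbp2 (chr3:142620413-142620662, plus strand): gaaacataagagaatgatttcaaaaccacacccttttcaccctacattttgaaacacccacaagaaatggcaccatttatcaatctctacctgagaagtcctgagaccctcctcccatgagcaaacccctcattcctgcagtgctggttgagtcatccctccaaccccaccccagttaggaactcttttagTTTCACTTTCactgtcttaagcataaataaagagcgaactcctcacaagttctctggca
Cxcl10 (chr5:92348890-92349139, minus strand): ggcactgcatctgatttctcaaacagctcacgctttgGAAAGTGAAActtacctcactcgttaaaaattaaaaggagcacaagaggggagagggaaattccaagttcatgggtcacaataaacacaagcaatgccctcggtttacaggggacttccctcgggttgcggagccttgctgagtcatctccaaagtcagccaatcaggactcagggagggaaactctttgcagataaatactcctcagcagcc
It was present on either strand in the 300-base windows of 11 of 14 interferon gamma genes and 11 of 18 type I interferon genes matched to RefSeq, and of 3.99% of all 27025 genes.

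Of 26 chemokines, 3 were called lower and none higher, against 1.74% of all genes called lower. Ccl28, which mucosal epithelia release to attract IgA plasma cells, was at 66.1, 38.6 and 30.4 CPM in WT mice and at 15.3, 16.3 and 21.4 CPM in iRhom2-/- mice (log2 fold change -1.35, SE 0.29, adjusted p = 0.070). The groups did not overlap, and without WT mouse 1 the log2 fold change was -0.98. Ccl20, an attractant of CCR6 cells, fell by 1.65 on the log2 scale and Ccl9, a macrophage chemokine, by 1.08 (adjusted p = 0.071 and 0.087).

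**Figure D3:**
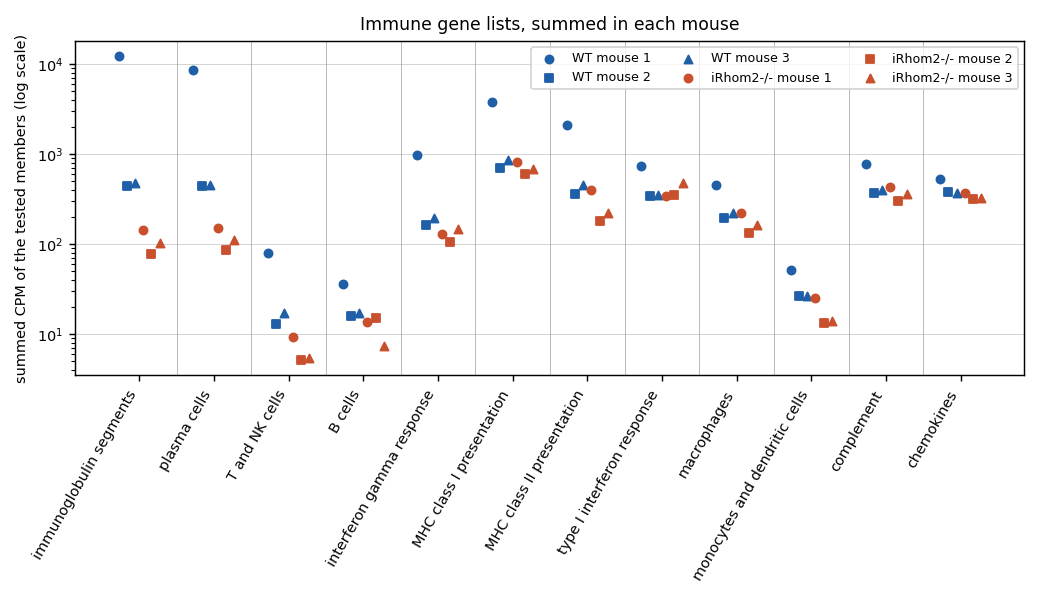
Summed CPM on a log scale (y axis) of the tested members of 12 immune gene lists (x axis) in each mouse, with blue symbols for WT and orange symbols for iRhom2-/-. WT mouse 1 is the highest mouse in every list, and for immunoglobulin segments and plasma cells WT mice 2 and 3 also lie well above all iRhom2-/- mice.

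Connective tissue and vessel genes had few calls. None of 9 fibroblast, 7 smooth muscle and pericyte, 9 bone and cartilage or 14 matrix remodelling genes was called. Col1a1, the main collagen of bone and stroma, was at 4325, 1588 and 2135 CPM in WT mice and at 3027, 1434 and 1920 CPM in iRhom2-/- mice, with mouse 1 the highest of each genotype. Of 8 endothelial genes, Cldn5, a tight junction protein, was called higher at 48.0, 47.4 and 45.6 CPM against 59.3, 70.7 and 72.8 CPM (log2 fold change 0.52, SE 0.08, adjusted p = 0.041), while Pecam1 of the same cells did not pass (log2 fold change -0.20, adjusted p = 0.461). Of 12 genes of ciliated respiratory cells only Ccdc40 was called, higher by 0.39 on the log2 scale. Others of that list were low in iRhom2-/- mice 2 and 3 alone: Dnah5, an outer dynein arm chain, was at 66.9, 43.4 and 65.0 CPM in WT mice and at 60.4, 6.59 and 11.9 CPM in iRhom2-/- mice. Mice 2 and 3 were also those with low Bpifa1.

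Metabolic lists moved little. Of 25 nuclear genes of oxidative phosphorylation, 24 had higher means and 3 were called higher (3.24% of all genes), Cox5a, Ndufv1 and Uqcrc1, by 0.26 to 0.28 on the log2 scale. The 13 mitochondrially encoded genes had none called, and mitochondrial genes took 2.93 to 4.19% of counts in WT libraries against 3.19 to 4.94% in iRhom2-/- libraries (exact two-sided permutation test p = 0.5). Of 17 cholesterol synthesis genes, 4 were called higher and none lower, against 3.24% of all genes called higher. Fdft1, squalene synthase, was at 73.9, 70.5 and 70.7 CPM in WT mice and at 90.2, 90.9 and 94.0 CPM in iRhom2-/- mice (log2 fold change 0.35, SE 0.05, adjusted p = 0.028), and Sqle and Fdps, other steps of the pathway, rose by 0.30 and 0.29 on the log2 scale. The circadian genes Cry2 and Nr1d2 were called in opposite directions, at 0.28 and -0.33, and the chaperone gene Hsph1 fell by 0.44 on the log2 scale. No gene of the unfolded protein response was called among 15.

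**Figure D4:**
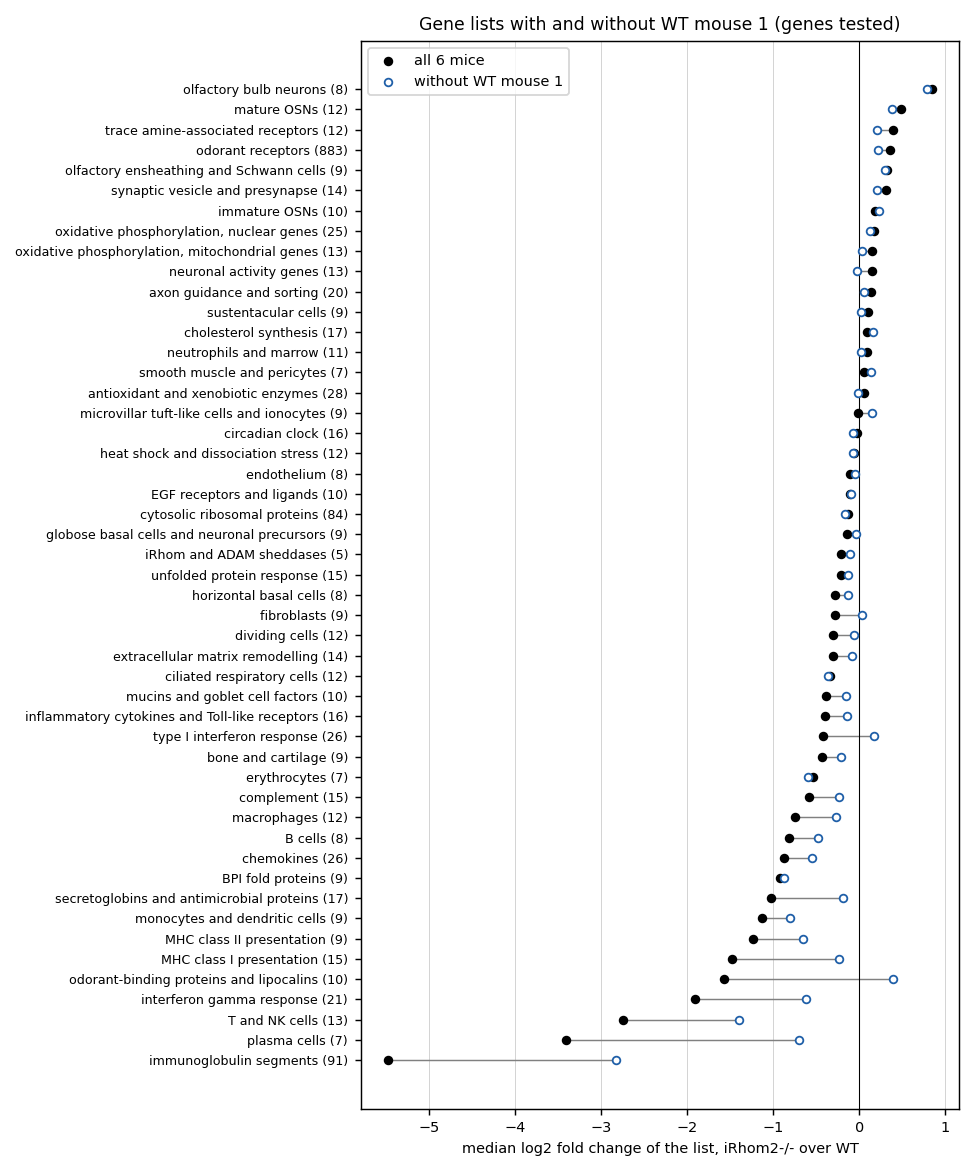
Median log2 fold change, iRhom2-/- over WT (x axis), of each gene list (y axis, with the number of genes tested), over all 6 mice (filled) and without WT mouse 1 (open). The open points of the immune and secretory lists lie nearer to 0, and that of the odorant-binding proteins and lipocalins goes from -1.57 to 0.39.

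The genes with the smallest p-values were of other kinds. Hddc3, which encodes a phosphohydrolase on chromosome 7, was at 6.35, 6.17 and 6.44 CPM in WT mice and at 39.0, 55.0 and 42.8 CPM in iRhom2-/- mice (log2 fold change 2.85, SE 0.14, adjusted p = 2.85e-04). Gcnt7, a glycosyltransferase gene on chromosome 2, was at 33.2, 31.5 and 30.3 CPM against 81.6, 70.2 and 77.4 CPM (log2 fold change 1.27, SE 0.07, adjusted p = 4.89e-04). Hdac11, a histone deacetylase, was at 111, 110 and 116 CPM against 193, 186 and 183 CPM (log2 fold change 0.74, adjusted p = 0.0028). In all 3 the groups lay far apart relative to the spread between mice. Gdpd3, a lysophospholipase gene, and Slc37a1, a sugar phosphate transporter gene, rose by 2.11 and 0.81 on the log2 scale (adjusted p = 0.0029 and 0.0067). All 5 calls held whichever mouse was left out, but that of Gdpd3 was lost in the fit of 12 mice of both ages (adjusted p = 0.459).

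Several of the largest changes were in genes with near-identical copies elsewhere in the genome. Rps2, a ribosomal protein gene, was at 475, 419 and 449 CPM in WT mice and at 31.4, 35.5 and 32.9 CPM in iRhom2-/- mice (log2 fold change -3.75, SE 0.09, adjusted p = 3.33e-06). Its copy Rps2-ps10 was at 12.0, 7.71 and 9.06 CPM against 478, 484 and 466 CPM, the reverse of the parent. Rps2 summed with its copies was at 488, 427 and 458 CPM against 509, 520 and 499 CPM, with no call (log2 fold change 0.15, adjusted p = 0.344). The calls were also lost in the sums for Rps13 (log2 fold change -0.11, adjusted p = 0.516), Rpl3 (-0.09, adjusted p = 0.544), Rnps1 (0.10, adjusted p = 0.384), Hmga1 with Hmga1b (-0.21, adjusted p = 0.399), Ahcy with Gm4737 (0.28, adjusted p = 0.156) and Rpl30 (-0.17, adjusted p = 0.152). The values of these genes alone are therefore uncertain. Rps15a summed with its copies stayed lower (log2 fold change -0.50, SE 0.07, adjusted p = 0.036). Of the copies, Rpl3-ps1 shared 94.7%, Rps13-ps1 87.2% and Rps2-ps10 82.1% of their 31-base words with the parent transcript. Not every copy in the sums was so close: Rps2-ps2 shared 9.05%, Rpl30-ps6 4.4% and Rps13-ps8 0%. How the estimated counts were divided between parent and copy was not tested.

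Dcpp1 and Dcpp3, neighbouring genes for demilune cell and parotid proteins on chromosome 17, also changed in opposite directions. Dcpp1 was at 1.78, 2.05 and 1.65 CPM in WT mice and at 27.4, 17.6 and 25.5 CPM in iRhom2-/- mice, and Dcpp3 at 9.35, 7.94 and 8.71 CPM against 1.27, 0.725 and 0.933 CPM. Neither overlapped between genotypes, and Dcpp1, Dcpp2 and Dcpp3 summed were higher in iRhom2-/- mice (log2 fold change 1.19, SE 0.17, adjusted p = 0.038). Of 23 such sums of called genes and copies, 14 passed the threshold, and with the sums in place 607 genes were called higher and 316 lower.

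**Figure D5:**
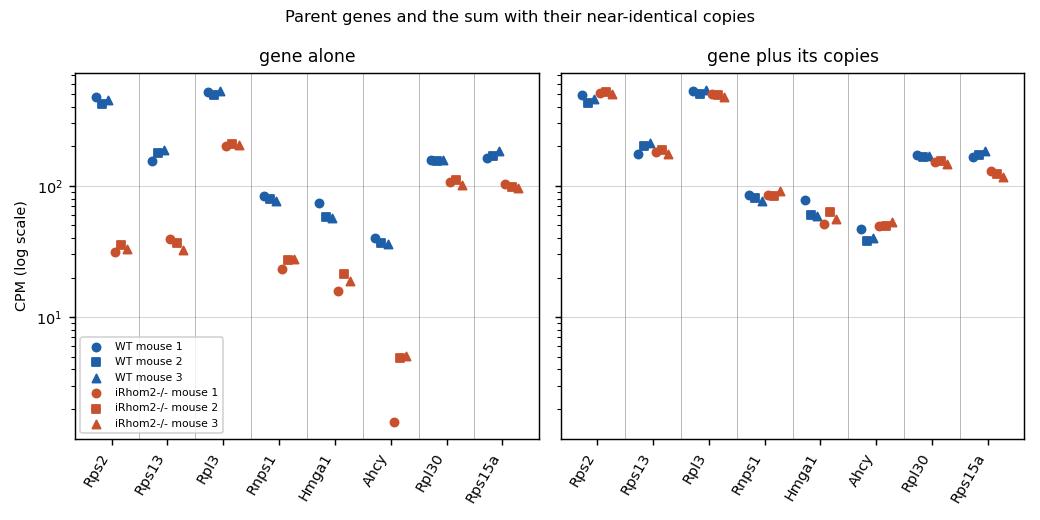
CPM on a log scale (y axis) of 8 genes (x axis) in each mouse, for the gene alone (left) and summed with its copies, near-identical or not (right). Blue symbols are WT and orange symbols iRhom2-/-. The genotypes are apart on the left for all 8 genes, and after summing the calls are lost for all but Rps15a.

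Called genes were unevenly spread over the chromosomes. The share of tested genes called was 10.2% on chromosome 15, 8.66% on chromosome 17 and 7.74% on chromosome 12, and 2.87 to 6.02% on the other autosomes and the X. On chromosome 12, neighbouring serine protease inhibitor genes were higher: Serpina1b was at 0.135, 0.0466 and 0.0247 CPM in WT mice and at 5.48, 2.82 and 3.07 CPM in iRhom2-/- mice (adjusted p = 0.0097), and Serpina3n, an acute phase gene, at 198, 110 and 116 CPM against 336, 337 and 397 CPM (log2 fold change 1.33, adjusted p = 0.045). The Serpina genes are close relatives, and the division of reads between them is uncertain. On chromosome 17, the zinc finger genes Zfp960 and Zfp97 lie at 17064113 to 17089628 and 17121415 to 17146831 and were both lower, Zfp960 at 6.32, 6.15 and 4.47 CPM against 0.425, 0.277 and 0.591 CPM (adjusted p = 0.0053) and Zfp97 at 6.48, 8.88 and 9.95 CPM against 0.149, 0.0427 and 0 CPM (adjusted p = 0.0066). Pagr1a on chromosome 7 had 0 counts in every WT mouse and 6.45, 7.02 and 1.77 CPM in iRhom2-/- mice, at least 6.17 higher on the log2 scale with WT set at 3 counts per library (adjusted p = 0.031).

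At 10 weeks, in separately submitted libraries, 924 of the called genes could be tested again, 571 had a difference in the same direction and 8 were called in it. The same shares over all genes are not given here, so these counts are not read as agreement between the ages. For the 57 genes that held without any single mouse, each 10-week mouse was placed nearer to the 8-week WT or the 8-week iRhom2-/- mean on the log2(CPM + 0.5) scale. The 10-week iRhom2-/- mouse 3 was nearer to the iRhom2-/- mean for 42 of the 57 genes, and the other 5 mice, WT and iRhom2-/- alike, for 14 to 20. Over 960 called genes, the 10-week WT mice 1 to 3 were nearer to the iRhom2-/- mean for 656, 492 and 622. The 10-week iRhom2-/- mice 1 to 3 were nearer to it for 654, 538 and 732, so the genotypes overlapped. Hddc3 was at 51.8 CPM in iRhom2-/- mouse 3 and at 9.47 and 10.4 CPM in the other iRhom2-/- mice at 10 weeks.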

How the data were processed

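Poly(A) RNA of the main OE was sequenced in paired reads. Per the study's methods the authors aligned reads to GRCm38 with STAR and deposited estimated counts per gene from RSEM, made in an nf-core pipeline. These estimated counts were rounded to whole numbers. The table's columns of the authors' own comparisons (fold changes and p-values) were not used, nor were 12 columns of per-sample values. Groups came from the labels, with 3 mice per genotype.

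Genes were filtered with filterByExpr (minimum count 10), scaled by TMM and tested with the edgeR 4.0.16 quasi-likelihood test (R 4.3.3), with Benjamini-Hochberg adjustment over all genes and a threshold of 0.1. SE is the log2 fold change divided by the square root of F. The library totals of 39191589 to 48660394 counts limit genes near the floor of 3 counts, and that floor covers counting error only. Alternatives were DESeq2 1.42.0, other scalings, filters, tests, covariates and samples, and each mouse left out. Summing copies and leaving WT mouse 1 out of the lists were chosen after seeing the data. Copies were compared by 31-base words of GENCODE M21 transcripts. The interaction of genotype and age was fitted over the 12 mice of 8 and 10 weeks. The steps were tested on simulated data.

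Named were Rhbdf2, the 8 genes of smallest p in each direction with a mean of at least 1 CPM and no overlap (without predicted genes and pseudogenes), up to 3 called genes of each list and direction or else its highest gene, the first marker of each cell type, and called genes that rest on 1 mouse. Other genes named were chosen after their values were seen. The members and lists were chosen with earlier results of these data known. Whether the mice were littermates is not given in the sources used here, and p-values measure the spread between these mice only. Gene positions are from GENCODE M21 and promoters from RefSeq, both on GRCm38. Results for some genes are not reported here.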

Additional observations from a re-analysis of the deposited data

Results flagged for a closer look

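The effects of genotype at 8 and 10 weeks differed by a test of the difference itself, over 12 mice and 20030 genes, for 16 genes past the threshold of 0.1 in edgeR, 11 of which were called at 8 weeks. Each age was a separate submission, so age and submission cannot be told apart. They included Gcnt7, Efna5 and Rps13, described in the report, and Zbtb16, described under other observations. For Gcnt7 the log2 fold change was 1.27 at 8 weeks and -0.10 at 10 weeks, a difference of -1.38 (SE 0.15, adjusted p = 0.016). WT mice at 10 weeks were at 68.9, 57.2 and 56.7 CPM and iRhom2-/- mice at 48.96, 59.2 and 62.2 CPM, so the groups overlapped at the later age. For Efna5 it was 0.40 at 8 weeks and -0.39 at 10 weeks, a difference of -0.797 (adjusted p = 0.082). WT mice at 10 weeks were at 32.4, 31.9 and 35.9 CPM and iRhom2-/- mice at 27.3, 24.8 and 24.5 CPM, with every iRhom2-/- mouse below every WT mouse. For Rps13 it was -2.27 at 8 weeks and -0.28 at 10 weeks, a difference of 1.98 (adjusted p = 0.084), and the value of Rps13 alone is uncertain because of its copies. The test for a single outlying sample needs groups of 4 or more and was not run.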

How the results depend on the processing

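Against 626 genes called higher and 336 lower, DESeq2 gave 1083 and 1002 and shared 943 of the 962 calls. The sex on the labels as a covariate left 66 and 72. Only WT mouse 3 was labelled female, so this covariate sets that mouse aside and says nothing about sex. Leaving WT mouse 3 out gave 61 and 69. The 12 mice in 1 fit left 241 and 150, and an adjusted p under 0.05 left 170 and 100. Leaving out 1 mouse gave 37 to 698 higher and 32 to 647 lower. With the wider limit of a log2 fold change under 2/3 of the full value, 14 genes rested on 1 mouse in place of 2. With the replicate number as a block 776 genes were higher and 678 lower. The numbers share only a number: the correlations of same-numbered mice were 0.155, 0.0613 and 0.0114, and not every mouse correlated best with its own number. RLE size factors (507 and 330), no filter on low counts (505 and 372), at least 10 counts in every library (538 and 335) and the likelihood ratio test (565 and 490) stayed within 1.5 times. Of 98 named genes followed through these settings (the other genes named were not), none that was called changed sign. List medians did so in places, as those of the odorant-binding proteins and type I interferon genes did without WT mouse 1. The cause of these shifts was not tested. Depth limits genes near 3 counts, such as T cell genes and rare ORs.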

Other observations

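Among the genes that fell 4-fold or more outside the lists were regulators. Zbtb16, a zinc finger transcription factor, was at 10.6, 4.78 and 7.63 CPM in WT mice and at 1.34, 0.619 and 0.864 CPM in iRhom2-/- mice, without overlap (log2 fold change -3.02, SE 0.40, edgeR quasi-likelihood adjusted p = 0.025). Chac1, a glutathione-degrading enzyme, was at 18.7, 11.2 and 7.60 CPM against 2.67, 2.62 and 3.00 CPM (log2 fold change -2.17, adjusted p = 0.034), and Gdf5, a secreted growth factor of the BMP family, at 7.25, 4.22 and 3.73 CPM against 0.849, 0.960 and 0.455 CPM (log2 fold change -2.74, adjusted p = 0.031). At 10 weeks Zbtb16 was at 1.30, 2.43 and 2.81 CPM in WT mice and at 3.01, 5.60 and 2.81 CPM in iRhom2-/- mice, and the effects at the 2 ages differed (adjusted p = 0.082).

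Among genes that rose 4-fold or more, Grm4, a metabotropic glutamate receptor, was at 0.429, 0.792 and 0.444 CPM in WT mice and at 2.36, 3.54 and 2.32 CPM in iRhom2-/- mice (log2 fold change 2.30, SE 0.36, adjusted p = 0.039). Sh3gl3, an endophilin of synaptic membranes, was at 0.881, 0.326 and 0.370 CPM against 2.80, 3.43 and 2.98 CPM (log2 fold change 2.54, adjusted p = 0.043). Ly6k, a surface protein gene, was at 0.655, 0.326 and 0.123 CPM against 3.78, 2.71 and 5.66 CPM (log2 fold change 3.44, adjusted p = 0.043).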
